A study of Mus musculus with 10 samples.

Results

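The genes described here are the enzymes, transporters and regulators that carry glucose and fructose through glycolysis, gluconeogenesis, glycogen turnover, pyruvate oxidation and the tricarboxylic acid (TCA) cycle. They were taken by name from a list of 43 genes, out of 18055 genes listed in at least 1 library, and all 43 were found. The list held 6 genes of sugar entry, 13 of glycolysis, 6 of gluconeogenesis, 4 of glycogen, 5 of the pyruvate dehydrogenase step and 9 of the TCA cycle. RNA was sequenced from primary hepatocytes of C57BL/6 mice, which had been isolated by collagenase perfusion and plated in DMEM with 10% serum. By the study's methods, cells not used for transfection were moved to serum-free DMEM before the exposures. The 5 groups had 2 libraries each. Vehicle libraries are labelled only by that name, with neither a fatty acid nor drug given for them. The PA group was exposed to 200 µM palmitate, a saturated fatty acid, and the LA group to 12 µM linoleate, a polyunsaturated fatty acid, both for 24 h. The PA+NTP and LA+NTP groups had the same exposures after 1 h of pretreatment with Neurotropin (NTP) at 0.4 NU/mL, a non-protein extract of rabbit skin inflamed with vaccinia virus that is prescribed for chronic pain. No group received NTP without a fatty acid, and the doses of the 2 fatty acids differed. The labels do not say whether the libraries of a group came from separate mice or cultures, so p-values measure the spread between these libraries, which may be technical.

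In liver, glucose enters and leaves the cell mainly through the transporter encoded by Slc2a2, is phosphorylated by glucokinase, and is either stored as glycogen or broken down to pyruvate. Fasting reverses the route through pyruvate carboxylase, phosphoenolpyruvate carboxykinase, fructose-1,6-bisphosphatase and glucose-6-phosphatase, so that the liver releases glucose. Fatty acids compete with pyruvate for mitochondrial oxidation, and the pyruvate dehydrogenase kinases are the switch that shuts off pyruvate entry when fat is burned. Hepatocytes kept on plastic are known to lose adult liver isozymes and gain forms used by other tissues.

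The levels below are FPKM, fragments scaled to transcript length and library size, which can be compared between genes. Fold changes came from edgeR's quasi-likelihood test on expected counts of 14097 genes with enough reads, with Benjamini-Hochberg adjustment over all of them. A gene is said to rise or fall where its adjusted p was under 0.05, and is said to be called where the change was also at least 1.5-fold. Of the 43 genes, 42 were tested, the exception being G6pc. Libraries held between 13142588 (PA replicate 1) and 60046937 (LA+NTP replicate 2) expected counts. In bulk RNA, fewer cells of a type and less RNA per cell cannot be told apart. The libraries also separated by base composition. Across genes, the rank correlation between GC content and a gene's level relative to its mean over all libraries was negative in the 4 libraries with a fatty acid alone, from -0.578 to -0.484, and positive in the 6 others, from 0.348 to 0.576. Each result below is therefore followed, where it matters, by its value after this trend across genes was removed.

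The transcript levels spanned 5 orders of magnitude and differed far more between genes than between treatments. Gapdh, the glyceraldehyde-3-phosphate dehydrogenase, was the most abundant of the 43, at 1699 to 3230 FPKM over the 10 libraries, a level similar to that of albumin, at 1929 to 2818 FPKM. Eno1, the ubiquitous enolase, followed at 367 to 552 FPKM. In each of the other groups the 2 genes with the highest mean levels were Slc2a1 and Khk for sugar entry, Pcx and Fbp1 for gluconeogenesis, Gbe1 and Pygl for glycogen, Pdha1 and Pdhb for pyruvate dehydrogenase, and Mdh2 and Suclg1 for the TCA cycle. At the other end, Pck1, the cytosolic phosphoenolpyruvate carboxykinase, was at 0.19 to 0.42 FPKM, and G6pc, the liver glucose-6-phosphatase, at 0.02 to 0.19 FPKM. The hormonally regulated ends of gluconeogenesis were thus close to silent in every group, while the lower part of glycolysis was among the most abundant mRNA of the cells.

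**Figure D1:**
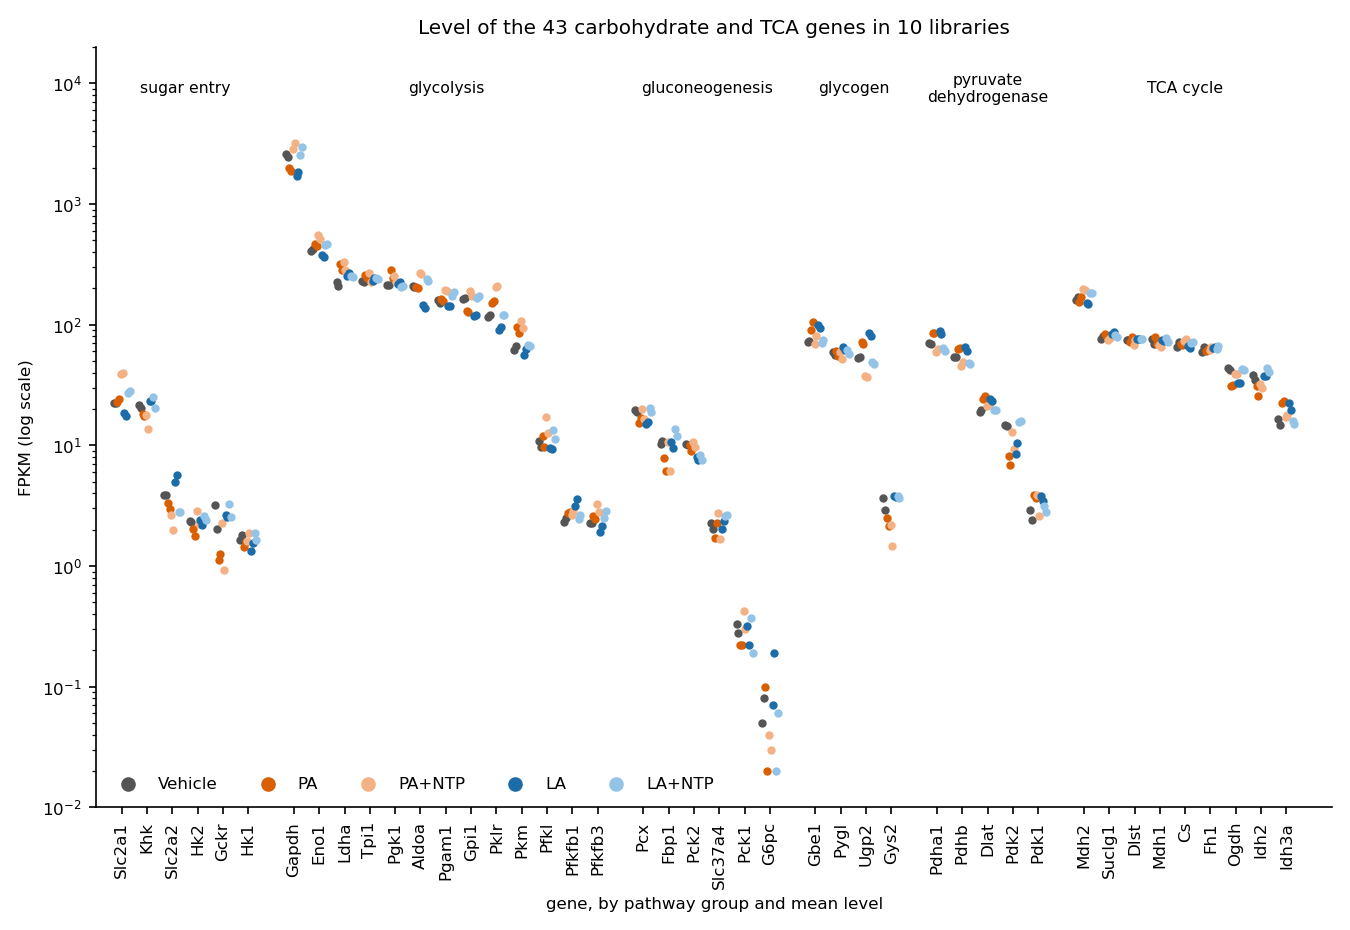
FPKM (log scale) of each of the 43 genes in each of the 10 libraries, arranged by pathway group and, within it, by mean level. Points are single libraries coloured by group. Gapdh lay between 1699 and 3230 FPKM and G6pc between 0.02 and 0.19 FPKM, and the spread between groups was small beside the distance between genes.

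Few of these genes changed by 1.5-fold. With PA, 4 of 42 tested genes were called (9.52%) against 14.9% of all genes tested, 1 higher and 3 lower. With LA, 2 of 42 were called (4.76%) against 10.6% of all genes, 1 higher and 1 lower. PA+NTP against PA gave 3 calls (7.14%, background 13.9%), 2 higher and 1 lower, and LA+NTP against LA gave 5 (11.9%, background 19.3%), 3 higher and 2 lower. As measured, the share of these genes called was below that of all genes in all 4 comparisons. Smaller changes were as common as elsewhere. At an adjusted p under 0.05 alone, 21 of 42 genes changed with PA (50%, background 45.5%), 20 with LA (47.6%, background 41.3%), 21 for PA+NTP against PA (50%, background 44.7%) and 21 for LA+NTP against LA (50%, background 51.5%). They went both ways, with 12 higher and 9 lower for PA, 11 and 9 for LA, 12 and 9 for PA+NTP against PA, and 13 and 8 for LA+NTP against LA. These smaller changes depended on the GC trend too. With it removed, 13 of the 21 with PA, 8 of the 20 with LA, 8 of the 21 for PA+NTP against PA and 11 of the 21 for LA+NTP against LA still passed in the same direction. The split between higher and lower genes became 13 and 6 with PA, 10 and 3 with LA, 3 and 10 for PA+NTP against PA, and 5 and 11 for LA+NTP against LA, so that with NTP the larger side changed from higher to lower. The median log2 fold change over the 42 genes was 0.03, 0.06, 0.06 and 0.03 in these 4 comparisons, beside -0.01, -0.01, 0.01 and 0.01 over all genes tested. With the trend removed these medians were 0.11, 0.11, -0.05 and -0.11. The calls were 14 in all, over 9 genes. Their number depended on the base composition trend and on the tool. In the GC-corrected fit, 2 of the 14 were kept, namely Gckr and Pdk2 with PA, while new calls appeared. PA then gave 3 higher and 3 lower, LA 1 higher, and both NTP comparisons 1 lower. Among all 14097 genes tested, that fit called 484 higher and 759 lower with PA, and 154 and 367 with LA. For NTP it called 585 and 305 after PA, and 574 and 315 after LA. The share of these genes called was then above that of all genes with PA, and below it in the other comparisons. The study's own rule, NOISeq at a probability of 0.95, as rebuilt here on FPKM, called none of the 42 genes in these comparisons. How many of all genes the rebuilt rule calls, and whether that matches the numbers the study reported, is not shown here. This 0 therefore has no background share beside it. The comparisons PA+NTP against PA and PA against Vehicle share the PA libraries, and those of LA share the LA libraries, so opposite changes in them are not independent of each other.

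**Figure D2:**
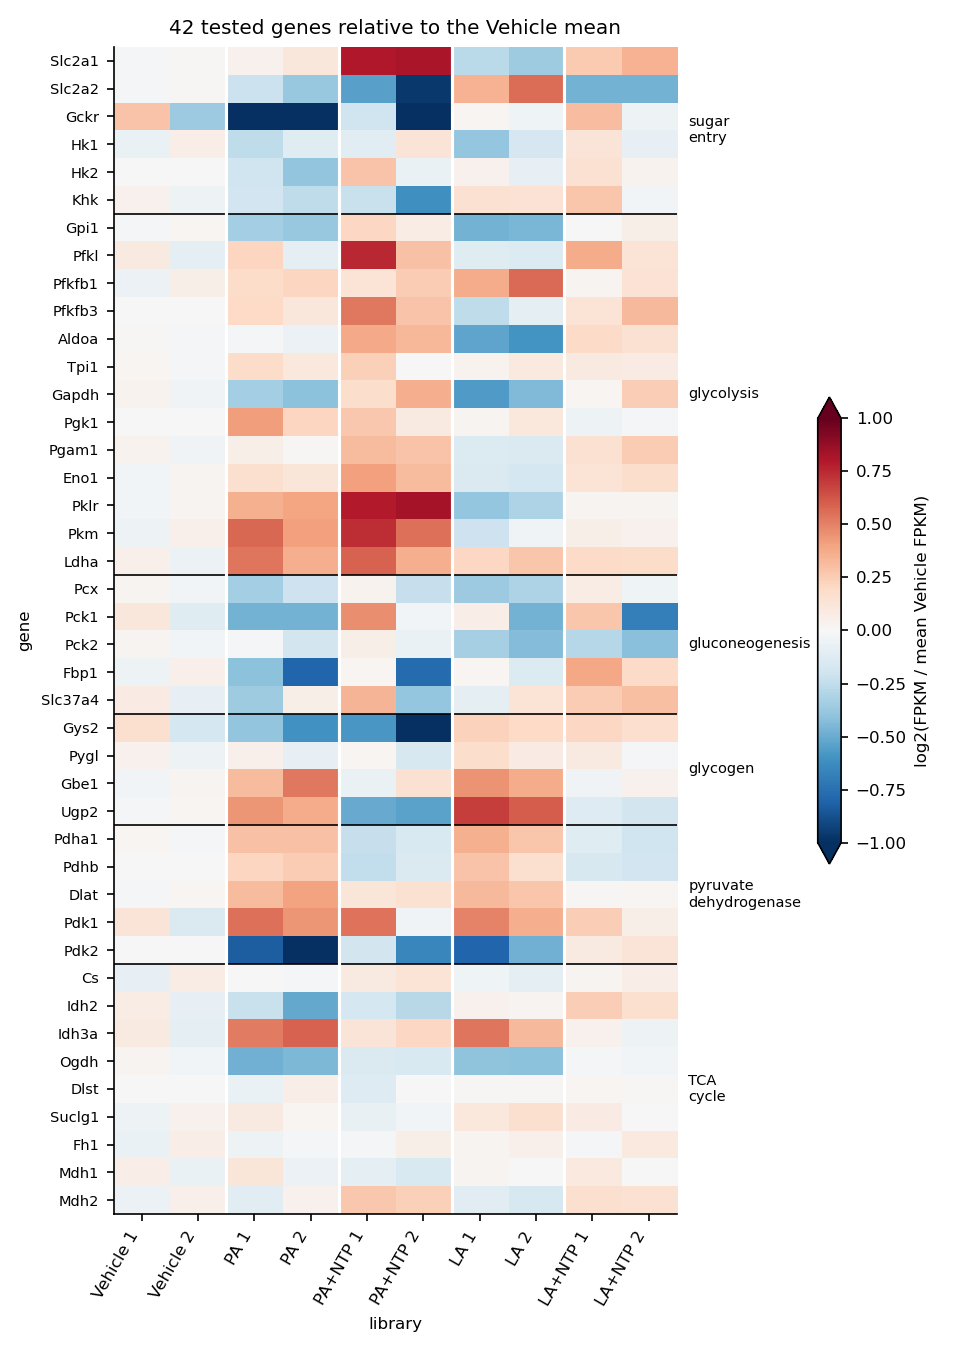
Level of the 42 tested genes in each library relative to the mean of the 2 Vehicle libraries, as log2(FPKM / mean Vehicle FPKM), with colours capped at 1 and -1. Rows are genes by pathway group and columns are libraries. Ugp2 and Idh3a were above Vehicle in both fatty acid groups and Pdk2 below it, while most TCA cycle rows stayed near 0.

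Among the genes of sugar entry, the plasma membrane transporters moved in opposite directions with NTP as measured. Slc2a1 encodes GLUT1, the widespread high-affinity glucose transporter, and stood at 22.3 and 22.6 FPKM in Vehicle, 23.1 and 24.2 in PA, 39.1 and 39.5 in PA+NTP, 18.6 and 17.5 in LA, and 26.9 and 28.5 in LA+NTP. The PA+NTP libraries were the highest and the LA libraries the lowest, with no overlap between any fatty acid group and its NTP counterpart. Slc2a1 was 1.59-fold higher in PA+NTP than in PA (log2 fold change 0.67 ± 0.06 SE, n = 2 per group, edgeR's quasi-likelihood test, adjusted p = 2.90e-06). It also rose in LA+NTP against LA, by 0.57 ± 0.06 on the log2 scale, just under the fold threshold. With the GC trend removed the PA+NTP difference was 0.45 and no longer reached 1.5-fold. Slc2a2 encodes GLUT2, the low-affinity transporter of adult hepatocytes. It measured 3.85 and 3.90 FPKM in Vehicle, 3.33 and 2.98 in PA, 2.66 and 1.99 in PA+NTP, 4.94 and 5.71 in LA, and 2.79 and 2.80 in LA+NTP. LA libraries were the highest, and the groups with NTP the lowest. It was called lower in LA+NTP than in LA (-0.97 ± 0.14, adjusted p = 4.86e-05 by edgeR's quasi-likelihood test), a 1.95-fold difference that became -0.56 once the GC trend was removed. It rose with LA by 0.50 ± 0.14 and fell in PA+NTP against PA by 0.48, neither of which passed with the trend removed, at 0.17 (adjusted p = 0.481) and -0.15 (adjusted p = 0.514). After removal of the trend, it was called lower with PA, at -0.60. Its transcript is among the poorest in GC of the group, at 41.7%, and that of Slc2a1 has 54%.

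Gckr encodes the glucokinase regulatory protein, which holds glucokinase in the nucleus. Its values were 3.20 and 2.04 FPKM in Vehicle, 1.13 and 1.26 in PA, 2.28 and 0.93 in PA+NTP, 2.66 and 2.54 in LA, and 3.24 and 2.53 in LA+NTP. Both PA libraries lay below every Vehicle and LA library, whereas the PA+NTP libraries lay far apart. Gckr was called lower with PA (-1.06 ± 0.34, adjusted p = 0.021, edgeR's quasi-likelihood test), with much the same estimate after the GC trend was removed, -1.11. The call was lost without Vehicle replicate 1 (-0.71, adjusted p = 0.19), PA replicate 1 (adjusted p = 0.0782) or PA replicate 2 (-1.16, adjusted p = 0.098). The hexokinases Hk1 and Hk2, which phosphorylate glucose at low concentrations, were low throughout, at 1.32 to 1.89 and 1.78 to 2.84 FPKM. Neither passed the threshold with PA or LA, and Hk2 rose in PA+NTP against PA (0.37 ± 0.13, adjusted p = 0.0285), a value of 0.24 (adjusted p = 0.181) with the trend removed. Khk, the fructokinase, ranged from 13.7 to 25.3 FPKM. It passed no test in the 4 main comparisons as measured, but its transcript, at 59.4% the richest in GC of the 43, lay where removal of the trend moved values most, and after it Khk was called higher with LA (0.67) and lower with NTP after both PA (-0.69) and LA (-0.67).

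The 250 bases before the start sites of both transporters are shown because these genes were called in opposite directions with NTP, Slc2a1 after PA and Slc2a2 after LA. They are RefSeq windows on GRCm38.p6, the assembly also known as mm10, at chr4:119108495-119108744 on the plus strand for Slc2a1 and chr3:28697653-28697902 on the plus strand for Slc2a2. Capitals mark matches to any of 7 motifs searched on both strands, namely the E-box CACGTG, the hypoxia-type core ACGTG, the cyclic AMP element TGACGTCA and its part TGACG, the TATA box TATAAA, the forkhead motif TGTTTAC and the GC box GGGCGG.
Slc2a1: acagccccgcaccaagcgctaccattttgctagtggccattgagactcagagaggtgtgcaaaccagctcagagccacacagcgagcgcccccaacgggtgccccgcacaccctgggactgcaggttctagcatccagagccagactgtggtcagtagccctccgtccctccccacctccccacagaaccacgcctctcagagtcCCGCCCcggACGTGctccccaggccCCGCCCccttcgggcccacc
Slc2a2: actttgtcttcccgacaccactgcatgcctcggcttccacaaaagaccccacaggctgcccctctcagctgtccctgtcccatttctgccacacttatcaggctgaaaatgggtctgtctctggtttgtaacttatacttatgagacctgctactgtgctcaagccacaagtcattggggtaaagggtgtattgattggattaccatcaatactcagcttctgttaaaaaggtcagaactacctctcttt
The Slc2a1 window has 66.4% GC, 1 hypoxia-type core and 2 GC boxes. The Slc2a2 window has 47.2% GC and none of the 7 motifs. RefSeq held windows for 41 of the 43 genes, 64 windows in all, while Gys2 and Idh3a were not matched. The GC box stood in 54.7% of the 64 windows and in 32.7% of all 32851 windows of the same length, the core ACGTG in 35.9% and 16.6%, the E-box in 12.5% and 6.0%, TGACGTCA in 7.8% and 1.5%, TGACG in 28.1% and 17.8%, and TATAAA in 6.2% and 12.4%. TGTTTAC stood in none of the 64 and in 3.2% of all. ACGTG is contained in CACGTG and TGACG in TGACGTCA, and genes with several start sites count more than once. A match is a description of the letters, and binding was not measured.

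In glycolysis, no gene was called with either fatty acid alone (background 14.9% with PA and 10.6% with LA). With PA, 5 of 13 genes rose and 2 fell, while 45.5% of all genes tested changed in either direction. The rises were at the end of the pathway, in Pklr, Pkm, Ldha, Pgk1 and Eno1, and the falls were in Gpi1, the phosphoglucose isomerase, and Gapdh. With the GC trend removed both falls were -0.19 (edgeR's quasi-likelihood test). That of Gpi1 still passed (adjusted p = 0.0219) and that of Gapdh did not (adjusted p = 0.127). Pklr, the liver pyruvate kinase, measured 116 and 121 FPKM in Vehicle, 151 and 156 in PA, 204 and 211 in PA+NTP, 90.7 and 95.7 in LA, and 121 in both LA+NTP libraries. Every PA and PA+NTP library exceeded every other library. The rise with PA was 0.41 ± 0.06 on the log2 scale (adjusted p = 5.62e-05, edgeR's quasi-likelihood test). Pkm, the muscle-type pyruvate kinase, measured 62.2 and 66.7 FPKM in Vehicle, 95.9 and 85.5 in PA, 108 and 94.4 in PA+NTP, 55.7 and 62.8 in LA, and 67.2 and 66.5 in LA+NTP, the same order of groups. It rose with PA by 0.52 ± 0.08. Ldha, the lactate dehydrogenase subunit of glycolytic tissues, measured 228 and 211 FPKM in Vehicle and 318 and 283 in PA, a rise of 0.48 ± 0.08. These 3 genes lie above the median GC content of all genes tested, which is 49.6%, in a comparison where such genes tended to be lower. Corrected for GC content, they were called higher with PA, Pklr at 0.63, Pkm at 0.89 and Ldha at 0.59. In shared sequence, 77.2% of the 31-base words of Eno1 and 68.3% of those of Pgk1 also occur in other annotated genes. The figures were 50.9% for Pkm, 34.2% for Ldha and 0.0% for Pklr. Which kinds of genes these others are was not examined, and the counts are uncertain to the extent of the shared words. Exons of Gm49759 also overlap those of Pkm on the same strand.

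LA gave another pattern in glycolysis, with 2 of 13 genes higher and 4 lower (background 41.3% in either direction). Aldoa, the aldolase of muscle and most other tissues, was the gene of this group with the smallest adjusted p. It measured 209 and 207 FPKM in Vehicle, 207 and 200 in PA, 270 and 262 in PA+NTP, 144 and 137 in LA, and 238 and 231 in LA+NTP. The LA libraries stood below all others and the PA+NTP libraries above all others. The fall with LA was -0.51 ± 0.06 (adjusted p = 1.07e-05), or -0.15 (adjusted p = 0.0747) with the trend removed, and the gene was called higher in LA+NTP than in LA at 1.62-fold (0.69 ± 0.06, adjusted p = 3.64e-07, edgeR's quasi-likelihood test). Removal of the GC trend brought that value to 0.23, the transcript having 56.9% GC. Aldoa rose by 0.33 ± 0.06 in PA+NTP against PA, which became -0.03. Gapdh followed a simple course, with 2578 and 2446 FPKM in Vehicle, 1983 and 1886 in PA, 2843 and 3230 in PA+NTP, 1699 and 1851 in LA, and 2550 and 2986 in LA+NTP. All 4 libraries with a fatty acid alone were below the other 6. The falls were -0.34 ± 0.09 with PA and -0.46 ± 0.09 with LA. With the trend removed they were -0.19 and -0.30, and only the fall with LA passed. Gapdh was called higher with NTP after PA (0.59 ± 0.09, adjusted p = 7.80e-05) and after LA (0.60 ± 0.09, adjusted p = 4.73e-05), both at the edge of 1.5-fold. The first call was lost without PA replicate 2 (0.55) or PA+NTP replicate 2 (0.47), and the second without LA replicate 1 (0.54), LA+NTP replicate 2 (0.48) or either PA+NTP library (0.58 each). With the trend removed the values were 0.43 and 0.40. Words shared with other genes made up 34.2% of Aldoa and 30.7% of Gapdh.

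The control points of glycolysis changed little. Pfkl, the liver phosphofructokinase, was at 9.32 to 17.3 FPKM and rose with NTP after PA (0.43 ± 0.13, adjusted p = 0.0168) and after LA (0.35 ± 0.13, adjusted p = 0.0409). It measured 10.9 and 9.62 FPKM in Vehicle, 11.9 and 9.61 in PA, 17.3 and 12.6 in PA+NTP, 9.42 and 9.32 in LA, and 13.3 and 11.3 in LA+NTP, so that the groups with NTP lay above their counterparts without overlap. After removal of the trend, these rises were 0.07 and -0.12. Pfkfb1 and Pfkfb3, the bifunctional enzymes that set the level of fructose-2,6-bisphosphate, were at 2.32 to 3.57 and 1.91 to 3.29 FPKM. Pfkfb1 rose with LA by 0.50 ± 0.17 (adjusted p = 0.0301) and fell in LA+NTP against LA by 0.42, and Pfkfb3 rose in LA+NTP against LA by 0.37 ± 0.11 (adjusted p = 0.0144). None of these 3 passed with the trend removed, at 0.34, -0.21 and 0.31. With NTP after PA, 7 of 13 genes of glycolysis rose and 1 fell (background 44.7% in either direction). After LA, 8 rose and 1 fell (background 51.5%). The genes of smallest adjusted p were Gpi1 after PA (0.44 ± 0.06) and Aldoa after LA. Corrected for GC content, Gpi1 (0.30 and 0.28) and Gapdh still rose after both fatty acids and Aldoa after LA, whereas Pklr was at 0.15 and 0.04 and passed after neither. Eno1, which had risen by 0.16 and 0.28, was lower, at -0.22 after each (adjusted p = 0.0118 for both), and Pkm (-0.29 and -0.38) and Tpi1 (-0.28 and -0.27) were lower as well. The genes not described above were abundant and narrow in range, with Gpi1 at 119 to 190 FPKM, Tpi1, the triose-phosphate isomerase, at 224 to 268, Pgk1, the phosphoglycerate kinase, at 204 to 283, and Pgam1, the phosphoglycerate mutase, at 141 to 194. Summed over the 13 genes the level was 4240 and 4380 FPKM in Vehicle, 3850 to 4070 in PA, 5240 to 5430 in PA+NTP, 3340 to 3530 in LA and 4490 to 4940 in LA+NTP. Gapdh was the largest term of each sum, and the sums were not corrected for the GC trend.

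Gluconeogenesis was low at its committed steps in all groups. Pck1 measured 0.33 and 0.28 FPKM in Vehicle, 0.22 in both PA libraries, 0.42 and 0.30 in PA+NTP, 0.32 and 0.22 in LA, and 0.37 and 0.19 in LA+NTP. The LA and LA+NTP libraries overlapped, the PA+NTP libraries lay above both PA libraries, and no main comparison passed the threshold. With 232 counts over all 10 libraries the errors were wide (PA against Vehicle -0.42 ± 0.48, adjusted p = 0.509, and PA+NTP against PA 0.64 ± 0.45, adjusted p = 0.276), so a change of this size was not detectable at this depth. G6pc measured 0.05 and 0.08 FPKM in Vehicle, 0.10 and 0.02 in PA, 0.04 and 0.03 in PA+NTP, 0.07 and 0.19 in LA, and 0.02 and 0.06 in LA+NTP, from 42 counts in all, and was not tested. Pck2, the mitochondrial carboxykinase, was at 7.55 to 10.6 FPKM, so that Pck1 made up only 2.14% to 4.24% of their summed FPKM in any library. Pck2 fell with LA (-0.33 ± 0.09, adjusted p = 0.00639), or by -0.25 (adjusted p = 0.0556) with the trend removed. Pcx, the pyruvate carboxylase, was at 15.1 to 20.4 FPKM and fell with both PA (-0.24 ± 0.08, adjusted p = 0.0301) and LA (-0.29 ± 0.08, adjusted p = 0.0109), then rose in LA+NTP against LA (0.31 ± 0.08, adjusted p = 0.00445). All 3 values turned sign with the trend removed, at 0.13, 0.11 and -0.20, and none of them passed the threshold.

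Fbp1, the liver fructose-1,6-bisphosphatase, was the one gene of gluconeogenesis called in the 4 main comparisons. It measured 10.2 and 10.9 FPKM in Vehicle, 7.92 and 6.08 in PA, 10.7 and 6.18 in PA+NTP, 10.7 and 9.59 in LA, and 13.8 and 12.0 in LA+NTP. Both PA libraries were below the Vehicle libraries, and the PA+NTP libraries spanned the range of both groups. The fall with PA was 1.52-fold (-0.60 ± 0.20, adjusted p = 0.025, edgeR's quasi-likelihood test). It did not hold without Vehicle replicate 1 (-0.64, adjusted p = 0.0639), Vehicle replicate 2 (-0.55, adjusted p = 0.124) or PA replicate 2 (-0.37, adjusted p = 0.303), nor with the GC trend removed (-0.48, adjusted p = 0.0913). Slc37a4, which carries glucose-6-phosphate into the endoplasmic reticulum, stayed between 1.66 and 2.74 FPKM and passed no test in the 4 main comparisons. The start-site windows of the near-silent genes are shown because these are the classical hormone-regulated promoters of fasting, on GRCm38.p6 at chr2:173152823-173153072 for Pck1 and chr11:101367466-101367715 for G6pc, both plus strand.
Pck1: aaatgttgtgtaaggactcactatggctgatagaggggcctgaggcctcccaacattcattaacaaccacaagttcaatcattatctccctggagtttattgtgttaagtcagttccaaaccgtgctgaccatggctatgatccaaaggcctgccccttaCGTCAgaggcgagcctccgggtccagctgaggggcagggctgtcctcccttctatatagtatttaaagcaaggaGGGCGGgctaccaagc
G6pc: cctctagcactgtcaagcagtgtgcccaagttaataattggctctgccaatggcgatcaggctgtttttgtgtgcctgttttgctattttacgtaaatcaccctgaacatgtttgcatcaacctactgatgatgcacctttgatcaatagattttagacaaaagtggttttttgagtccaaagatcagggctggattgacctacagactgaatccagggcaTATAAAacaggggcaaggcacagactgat
The Pck1 window holds TGACG on the opposite strand, 90 bases before the start, and a GC box. The G6pc window holds a TATA box 29 bases before the start and has 43.2% GC.

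Ugp2 was the gene of the 43 with the smallest adjusted p in 3 of the 4 main comparisons. It encodes UDP-glucose pyrophosphorylase, which makes the glucose donor for glycogen. It measured 52.5 and 54.2 FPKM in Vehicle, 72.5 and 68.9 in PA, 37.6 and 36.7 in PA+NTP, 85.9 and 81.1 in LA, and 48.8 and 46.9 in LA+NTP. Every library with a fatty acid alone exceeded Vehicle, and every library with NTP was below it, without overlap. Ugp2 was 1.62-fold higher with LA (0.69 ± 0.06, adjusted p = 1.86e-06) and rose with PA by 0.44 ± 0.06 (adjusted p = 3.86e-05). It was 1.98-fold lower in PA+NTP than in PA (-0.99 ± 0.06, adjusted p = 1.08e-07) and 1.80-fold lower in LA+NTP than in LA (-0.85 ± 0.06, adjusted p = 1.33e-07, edgeR's quasi-likelihood test). All 3 calls held in each of the 10 fits that left out a library. Its transcript, at 39.1% GC, is the poorest in GC of the 43. In the GC-corrected fit, the same differences were 0.27 with LA, 0.04 with PA, -0.57 and -0.33, of which none reached 1.5-fold, while the adjusted p of the 2 NTP values remained 1.83e-05 and 0.000624. Exons of Gm12043 overlap those of Ugp2 on the other strand, as do exons of Gm12868 for Slc2a1, Fam57b for Aldoa, Iffo1 for Gapdh and Hcn3 for Pklr. Whether counting used strand is not given in the sources used here, so these counts carry that uncertainty.

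The first of 2 start-site windows listed for Ugp2 lies at chr11:21371268-21371517 on the minus strand of GRCm38.p6. It is shown because the calls of this gene had the smallest adjusted p of the 43.
Ugp2: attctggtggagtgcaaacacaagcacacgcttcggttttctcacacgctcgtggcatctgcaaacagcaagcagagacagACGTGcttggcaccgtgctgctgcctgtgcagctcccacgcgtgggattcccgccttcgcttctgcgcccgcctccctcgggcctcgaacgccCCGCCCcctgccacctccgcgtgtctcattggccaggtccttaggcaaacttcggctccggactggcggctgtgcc
The window holds 1 hypoxia-type core, 169 bases before the start, and 1 GC box, and has 64% GC, in contrast to the transcript.

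The other glycogen genes moved less. Gbe1, the branching enzyme, measured 71.2 and 73.6 FPKM in Vehicle, 90.1 and 104 in PA, 69.1 and 80.3 in PA+NTP, 99.0 and 93.7 in LA, and 70.6 and 74.7 in LA+NTP. The fatty acid groups were above all other libraries. It rose by 0.46 ± 0.08 with PA and by the same value with LA, and fell with NTP by 0.44 after PA and 0.45 after LA. None of the 4 changes passed with the trend removed, where they were 0.17, 0.15, -0.13 and -0.07 (adjusted p = 0.123, 0.221, 0.245 and 0.57). Gys2, the liver glycogen synthase, measured 3.65 and 2.89 FPKM in Vehicle, 2.49 and 2.15 in PA, 2.19 and 1.46 in PA+NTP, 3.83 and 3.76 in LA, and 3.77 and 3.67 in LA+NTP. It fell with PA by -0.48 ± 0.18 (adjusted p = 0.0472), or -0.53 (adjusted p = 0.0426) with the trend removed, and was not past the threshold in the other main comparisons. Pygl, the liver phosphorylase that releases glucose from glycogen, was flat, at 51.8 to 65.3 FPKM with no change past the threshold in any of the 4 main comparisons.

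In the pyruvate dehydrogenase group all 5 genes changed with both fatty acids as measured (background 45.5% with PA and 41.3% with LA). Of these, Pdha1, Dlat and Pdk2 with PA, and Pdha1 and Dlat with LA, also passed with the GC trend removed. The structural subunits rose and the kinases split. Pdha1, the catalytic E1 subunit, measured 70.6 and 68.6 FPKM in Vehicle, 85.2 and 85.4 in PA, 59.3 and 62.7 in PA+NTP, 88.9 and 84.3 in LA, and 63.9 and 60.6 in LA+NTP. As with Ugp2, the groups with a fatty acid alone stood above Vehicle and those with NTP below it. Pdha1 rose by 0.33 ± 0.06 with PA and 0.36 ± 0.06 with LA, and fell with NTP by 0.54 after PA (adjusted p = 9.00e-06) and 0.52 after LA (adjusted p = 6.99e-06). Pdhb, its partner subunit, rose by 0.27 ± 0.07 with each fatty acid, and Dlat, the E2 core, rose by 0.39 ± 0.06 with PA and 0.35 ± 0.06 with LA. Both fell with NTP, Pdhb by 0.48 and 0.44 and Dlat by 0.28 and 0.32 after PA and LA. With the GC trend removed, Pdha1 was at 0.18 and 0.19 for the fatty acids and at -0.38 and -0.31 for NTP. Dlat was at 0.31 and 0.25, and at -0.20 and -0.21. Pdhb no longer passed with PA (0.16, adjusted p = 0.086) or LA (0.14, adjusted p = 0.157) but did with NTP, at -0.37 and -0.28.

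Pdk2, a widely expressed pyruvate dehydrogenase kinase, was called in 3 of the 4 main comparisons, as was Ugp2. Its values were 14.6 in both Vehicle libraries, 8.23 and 6.88 in PA, 12.8 and 9.31 in PA+NTP, 8.41 and 10.4 in LA, and 15.6 and 16.0 in LA+NTP. Libraries with a fatty acid alone were all below Vehicle and LA+NTP. Pdk2 was 1.92-fold lower with PA (-0.94 ± 0.14, adjusted p = 9.29e-05), 1.51-fold lower with LA (-0.59 ± 0.13, adjusted p = 0.00272) and 1.63-fold higher in LA+NTP than in LA (0.71 ± 0.13, adjusted p = 0.000369, edgeR's quasi-likelihood test). In PA+NTP against PA it rose by 0.52 ± 0.14 (adjusted p = 0.00735), or 0.16 (adjusted p = 0.417) with the trend removed. The fall with PA was kept in all 10 fits that left out a library, and with the GC trend removed, where it was -0.61 (adjusted p = 0.00426). The fall with LA became -0.23 (adjusted p = 0.256) and the rise with NTP after LA became 0.25 (adjusted p = 0.171). Without LA replicate 1 these were -0.43 (adjusted p = 0.0587) and 0.55, and without Vehicle replicate 1 or either PA+NTP library the fall with LA was -0.58, just under the fold threshold. Pdk1, the hypoxia-responsive kinase, measured 2.93 and 2.42 FPKM in Vehicle, 3.91 and 3.64 in PA, 3.90 and 2.61 in PA+NTP, 3.78 and 3.45 in LA, and 3.17 and 2.79 in LA+NTP. It rose with PA (0.53 ± 0.16, adjusted p = 0.0141) and LA (0.49 ± 0.16, adjusted p = 0.0214), neither of which passed with the trend removed, at 0.42 (adjusted p = 0.0713) and 0.36 (adjusted p = 0.145).

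**Figure D3:**
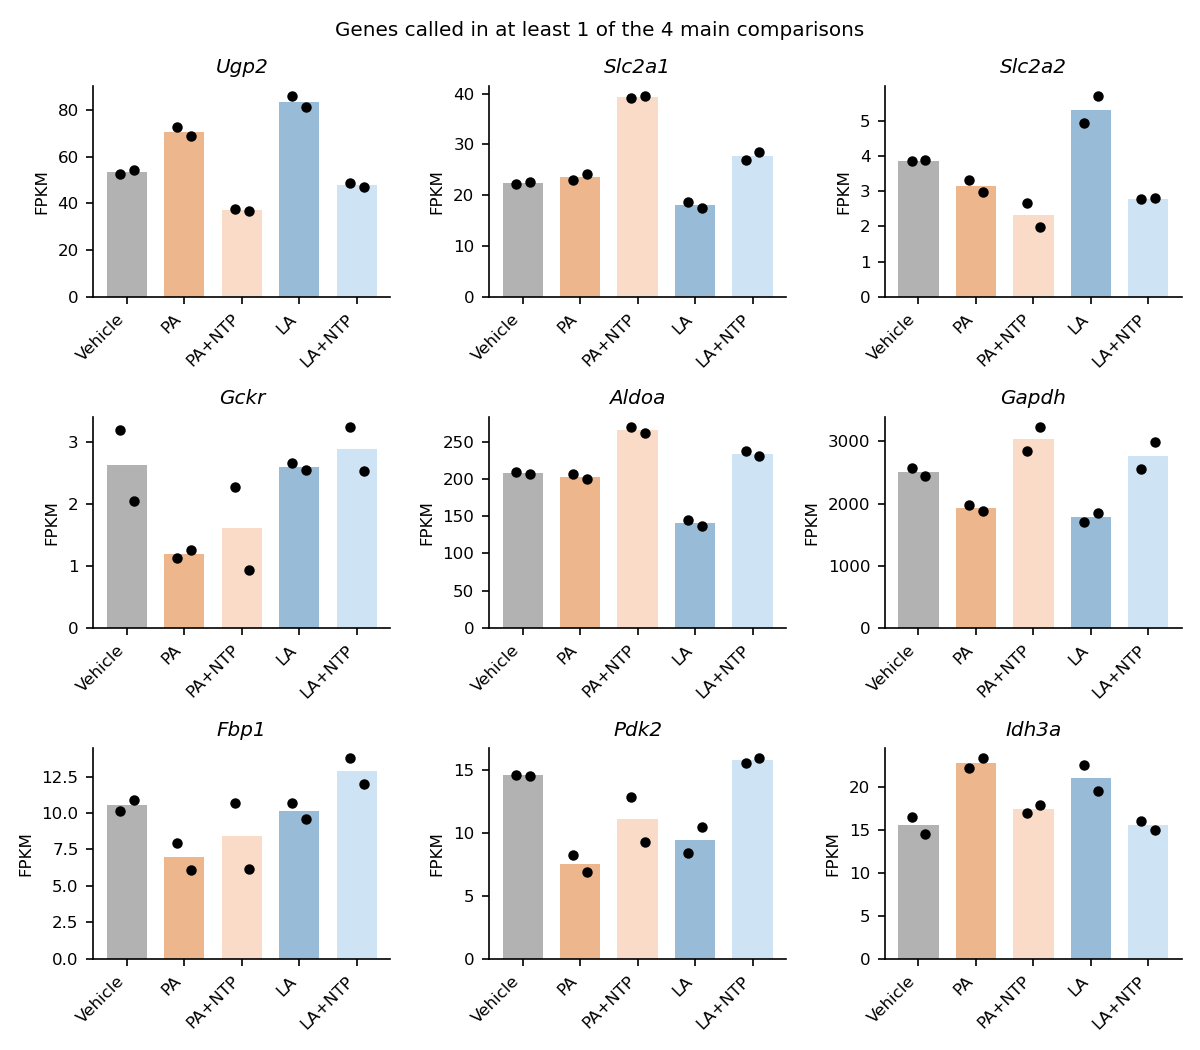
FPKM of the 9 genes called in at least 1 of the 4 main comparisons. Points are single libraries and bars their group means, starting at 0. Ugp2 and Idh3a were higher in both fatty acid groups than in Vehicle and Pdk2 lower, with group means of 53.3, 70.7 and 83.5 FPKM for Ugp2 and 14.6, 7.55 and 9.43 FPKM for Pdk2 in Vehicle, PA and LA.

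The first of 2 start-site windows listed for Pdk2 lies at chr11:95041372-95041621 on the minus strand of GRCm38.p6, and is shown because its call with PA held without each library and with the GC trend removed.
Pdk2: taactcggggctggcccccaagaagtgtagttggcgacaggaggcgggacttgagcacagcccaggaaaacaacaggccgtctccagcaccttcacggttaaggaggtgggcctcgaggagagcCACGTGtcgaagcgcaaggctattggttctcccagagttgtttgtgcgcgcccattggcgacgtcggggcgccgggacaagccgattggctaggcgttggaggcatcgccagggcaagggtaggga
It holds 1 E-box, 126 bases before the start, which contains the core ACGTG on both strands, and has 62.4% GC.

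The TCA cycle genes held 1 call over the 4 main comparisons. With PA, 1 of 9 genes rose and 2 fell (background 45.5% in either direction), and with LA, 2 rose and 1 fell (background 41.3%). Idh3a, the catalytic subunit of NAD-dependent isocitrate dehydrogenase, measured 16.6 and 14.6 FPKM in Vehicle, 22.3 and 23.4 in PA, 17.1 and 18.0 in PA+NTP, 22.6 and 19.6 in LA, and 16.0 and 15.1 in LA+NTP. The 4 libraries with a fatty acid alone were the highest. It was called higher with PA at 1.51-fold (0.59 ± 0.09, adjusted p = 0.000112, edgeR's quasi-likelihood test), rose with LA by 0.49 ± 0.09, and fell with NTP by 0.45 after PA and 0.48 after LA. The call was lost without Vehicle replicate 2 (0.50) or PA replicate 2 (0.56), and the value was 0.50 with the trend removed, where the other 3 were 0.38, -0.35 and -0.35 and still passed. Ogdh, the E1 subunit of oxoglutarate dehydrogenase, went the other way. It measured 44.0 and 42.4 FPKM in Vehicle, 31.1 and 31.6 in PA, 39.0 and 38.8 in PA+NTP, 32.6 in both LA libraries, and 42.7 and 42.4 in LA+NTP, with the fatty acid groups clearly apart. It had the smallest adjusted p of the 42 genes with PA (-0.43 ± 0.05, adjusted p = 2.29e-05), fell with LA by -0.36 ± 0.05, and rose with NTP by 0.25 ± 0.05 after PA and 0.34 ± 0.05 after LA. With the trend removed it was at -0.28, -0.21, 0.10 and 0.15, of which the rise after PA no longer passed (adjusted p = 0.194). Mdh2, the mitochondrial malate dehydrogenase and the most abundant gene of the cycle, was at 147 to 198 FPKM and rose with NTP by 0.22 ± 0.06 after PA and 0.25 ± 0.06 after LA, values of 0.14 and 0.15 with the trend removed that did not pass. Cs, the citrate synthase that starts the cycle, stayed between 64.3 and 75.5 FPKM, with log2 fold changes of 0.02, -0.03, 0.06 and 0.08 in the 4 main comparisons. Cs, Dlst, a subunit of oxoglutarate dehydrogenase, and Fh1, the fumarase, passed no test in any of these comparisons, with Dlst at 68.5 to 78.6 FPKM and Fh1 at 59.7 to 67.0. Idh2, the mitochondrial NADP-dependent isocitrate dehydrogenase, was at 25.6 to 43.4 FPKM and fell with PA (-0.34 ± 0.09, adjusted p = 0.00707). Suclg1, a subunit of succinyl-CoA synthetase, was at 74.6 to 87.7 FPKM and rose with LA by 0.18 ± 0.06, and Mdh1, the cytosolic malate dehydrogenase, was at 65.4 to 78.7 FPKM and fell in PA+NTP against PA by 0.21. Corrected for GC content, these were -0.07 for Idh2, -0.00 for Suclg1 and -0.06 for Mdh1, and none passed. Summed over the 9 genes, levels lay between 601 and 655 FPKM in all libraries.

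Where a step has several isozymes, their shares of the summed FPKM showed a mixture of liver and non-liver forms in every library. In these cultures GLUT1 outweighed GLUT2, with Slc2a1 at 85.3% ± 0.024 (SD, n = 2) of the pair in Vehicle, 88.2% ± 1.2 in PA, 94.4% ± 1.1 in PA+NTP, 77.2% ± 2.5 in LA and 90.8% ± 0.31 in LA+NTP. Hexokinases 1 to 3 together exceeded glucokinase, at 73.2% to 94.8% of their sum. The liver pyruvate kinase kept the larger share, with Pkm at 30.9% to 39.6% in all libraries. Gys2 was 51.7% ± 4.0 of the glycogen synthases in Vehicle, 47.4% ± 3.8 in PA, 32.7% ± 3.5 in PA+NTP, 65.8% ± 0.70 in LA and 53.5% ± 1.8 in LA+NTP. Pdk2 was 70.2% ± 0.63 of the 4 pyruvate dehydrogenase kinases in Vehicle, 48.9% ± 3.3 in PA, 62.7% ± 2.9 in PA+NTP, 56.0% ± 4.0 in LA and 70.8% ± 1.6 in LA+NTP. The Pdk2 share had the same direction in both fatty acid groups, while the GLUT1 share lay above Vehicle with PA and below it with LA. The shares were not corrected for the GC trend, and the isozymes differ in GC content. Slc2a1 has 54% and Slc2a2 41.7%, and Pdk2 has 56.9% and Pdk1 46.4%. Pygl stayed at 85.9% to 90.2% of the 3 glycogen phosphorylases in all libraries. These shares were not tested, since 2 libraries against 2 allow an exact permutation p of 0.333 at the smallest.

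**Figure D4:**
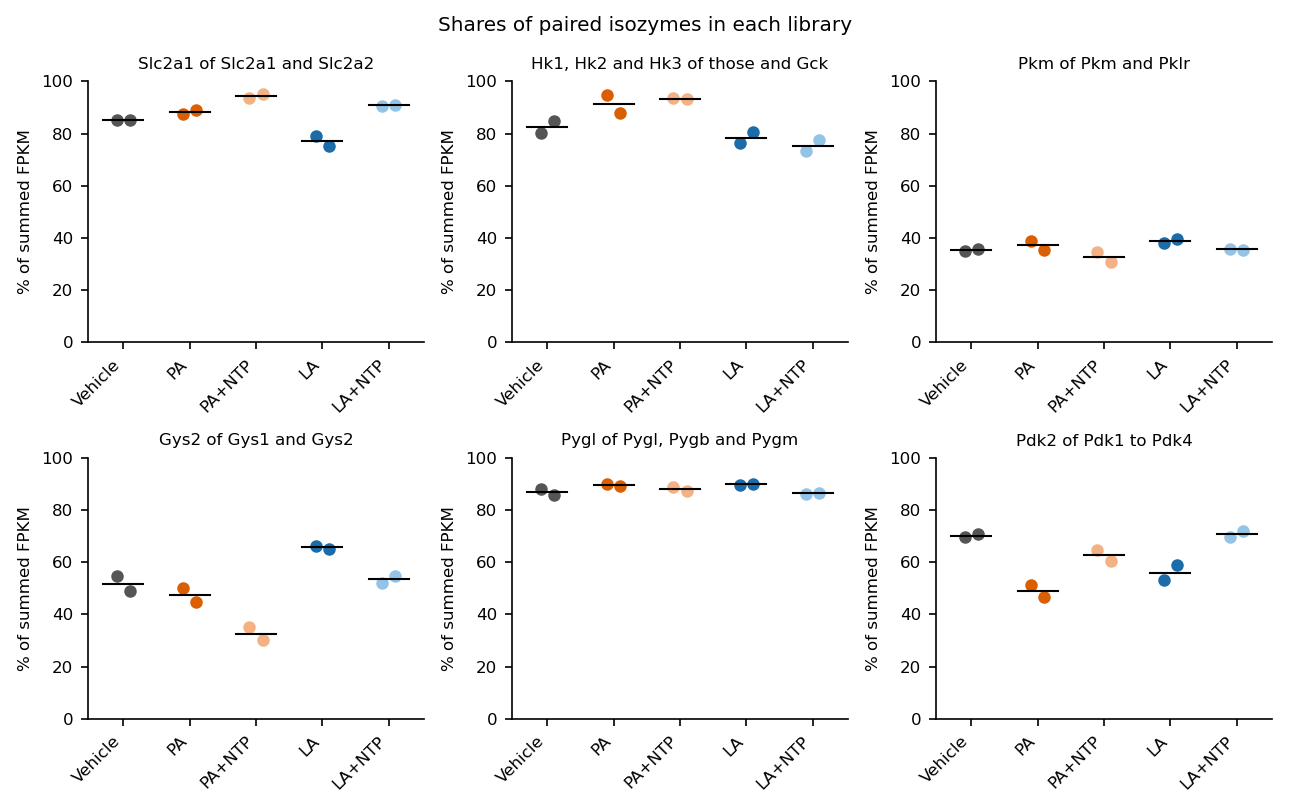
Share of 1 isozyme or isozyme class in the summed FPKM of its family, in percent, for 6 steps. Points are single libraries, coloured by group, and lines are group means. Slc2a1 lay at 75.4% to 79.0% of its pair in LA and at 93.6% to 95.2% in PA+NTP, and Pdk2 was below Vehicle in both fatty acid groups. The shares were not corrected for the GC trend.

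The remaining genes of these pathways, 91 by a list that also covers their regulators, were called at shares near the background. Of 86 tested, 13 were called with PA (15.1%), 7 with LA (8.14%), 10 for PA+NTP against PA (11.6%) and 13 for LA+NTP against LA (15.1%), beside the 14.9%, 10.6%, 13.9% and 19.3% of all genes. In all, 23 genes were called in a main comparison, and 11 of the 12 with the smallest adjusted p are described. Gpd1, the cytosolic glycerol-3-phosphate dehydrogenase, measured 42.3 and 37.7 FPKM in Vehicle, 22.5 and 20.9 in PA, 27.6 and 26.9 in PA+NTP, 33.1 and 32.6 in LA, and 47.4 and 44.0 in LA+NTP. The 4 libraries with palmitate were below the 6 others. It fell with PA by -0.85 ± 0.07 (adjusted p = 1.12e-06, edgeR's quasi-likelihood test), or -0.52 with the GC trend removed, while Slc16a1, the lactate and pyruvate transporter MCT1, rose with it (0.67 ± 0.06), or by 0.40 with the trend removed, so that neither was called then.

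Among mitochondrial genes, Dld, the E3 subunit shared by the pyruvate and oxoglutarate dehydrogenases, measured 49.5 and 51.1 FPKM in Vehicle, 82.5 and 84.7 in PA, 47.5 and 49.9 in PA+NTP, 82.6 and 78.2 in LA, and 46.3 and 44.7 in LA+NTP. It was called in all 4 main comparisons, at 0.77, 0.72, -0.84 and -0.86 for PA, LA, NTP after PA and NTP after LA, and in none with the trend removed, at 0.41, 0.35, -0.47 and -0.40. Sucla2, the ATP-forming subunit of succinyl-CoA synthetase, was called in the same 4, at 0.59, 0.65, -0.71 and -0.74, and Suclg2, its GTP-forming counterpart, fell with NTP after PA by 0.66 and after LA by 0.48. In the GC-corrected fit, Sucla2 was at 0.34, 0.38, -0.44 and -0.40 and Suclg2 at -0.44 and -0.21, and neither gene was called. Gsk3a, a kinase that inactivates glycogen synthase, was the mirror image, at -0.74, -0.71, 0.82 and 0.82, or -0.29, -0.22, 0.35 and 0.20 with the trend removed. Galk1, the galactokinase, was called higher in LA+NTP against LA at 0.69, which became 0.00.

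Among the regulators, Mlxipl encodes ChREBP, the glucose-responsive transcription factor that drives Pklr. It measured 33.9 and 32.6 FPKM in Vehicle, 22.0 and 22.3 in PA, 52.2 and 42.3 in PA+NTP, 19.6 and 18.7 in LA, and 35.9 and 38.8 in LA+NTP. It fell with PA (-0.55 ± 0.08) and LA (-0.75 ± 0.08) and rose with NTP by 1.03 ± 0.08 after PA and 0.92 ± 0.08 after LA. With the trend removed the rise after PA was still called, at 0.69, while the fall with LA and the rise after LA were not. The Mlxipl transcript has 56.6% GC. All genes of 56% to 58% GC had a median of -0.33 with PA and -0.36 with LA. As measured, Mlxipl fell and Pklr rose with PA, while with LA both fell and with NTP both rose. After removal of the trend, Pklr did not pass with LA (-0.07, adjusted p = 0.421) or with NTP after PA (0.15, adjusted p = 0.0733) or LA (0.04, adjusted p = 0.622). Crtc2, the coactivator of CREB in fasting gluconeogenesis, measured 26.1 and 26.2 FPKM in Vehicle, 14.4 and 15.6 in PA, 29.9 and 30.9 in PA+NTP, 13.5 and 15.2 in LA, and 30.2 and 31.3 in LA+NTP. It was called in all 4 main comparisons, at -0.76, -0.82, 0.96 and 1.06, and with the trend removed in all but PA, at -0.53 with PA, -0.59 with LA, and 0.72 and 0.76 for NTP. Hif1a, the hypoxia-inducible factor, rose with PA by 0.83 ± 0.07, and Creb1 fell by 0.61 in LA+NTP against LA, values that became 0.50 and -0.11.

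The GC content of the genes that rose and fell is given beside these results. With LA, GC content was 45.6% at the median of the 11 genes that rose, against 54% for the 9 that fell. With PA, the medians were 47% for the 12 that rose and 52.5% for the 9 that fell. With NTP after PA the order was inverted, 53.4% for the 12 that rose and 45.7% for the 9 that fell, as it was after LA, with 54% for 13 and 45.6% for 8. All genes tested moved likewise, with a median log2 fold change with LA of 0.38 for genes of 40% to 42% GC and -0.36 for those of 56% to 58%, and in LA+NTP against LA of -0.46 and 0.46. Since the trend runs along the groups, whether it came from library preparation or from the cells cannot be told apart here.

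**Figure D5:**
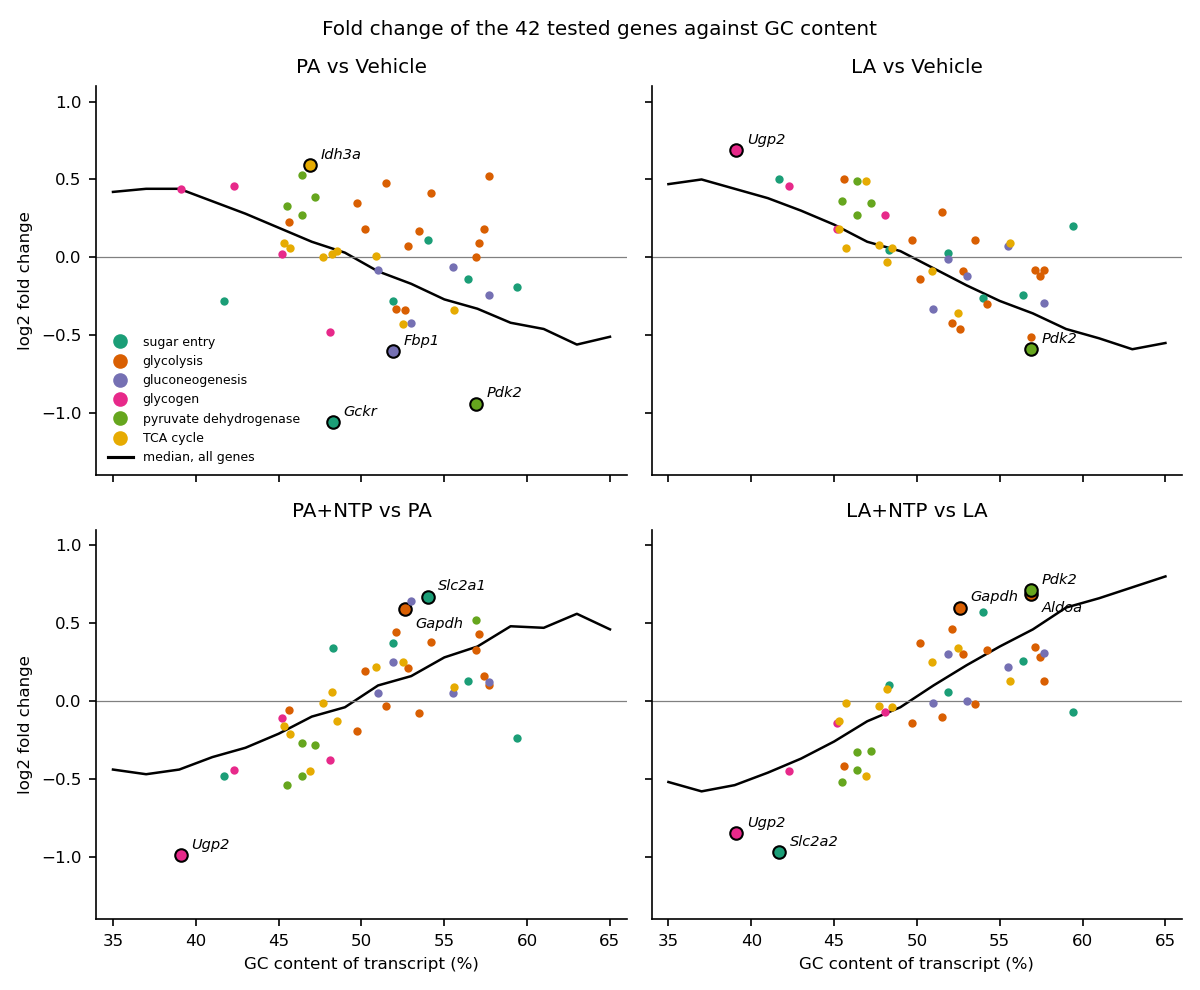
Log2 fold change of the 42 tested genes against the GC content of their transcript (%), in the 4 main comparisons. Points are genes coloured by pathway group, outlined and named where called, and the black line is the median of all genes tested in GC bins 2% wide with at least 20 genes. With PA, Ugp2, at 39.1% GC, lay on the line at 0.44, and in the other panels it lay beyond it on the side of the trend, while Gckr with PA, at -1.06, lay far from the line.

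The groups with NTP were also compared directly with Vehicle. In LA+NTP, 0 of 42 genes were called (background 0.0922%) and 0 passed an adjusted p under 0.05, with log2 fold changes from -0.47 to 0.31. By edgeR's quasi-likelihood test 12 of the 42 and 2014 of all genes had an unadjusted p under 0.05, and DESeq2, limma and the NOISeq rule also called none of the 42. In PA+NTP, 5 of 42 were called (11.9%, background 2.85%), 3 higher and 2 lower. Slc2a1 was 1.72-fold higher (0.79 ± 0.06, adjusted p = 7.05e-06), Pklr was 1.72-fold higher (0.79 ± 0.06, adjusted p = 2.37e-06) and Pkm was 1.54-fold higher (0.62 ± 0.08, adjusted p = 0.000192). Slc2a2 was 1.70-fold lower (-0.77 ± 0.15, adjusted p = 0.00508) and Gys2 1.81-fold lower (-0.86 ± 0.18, adjusted p = 0.00794, edgeR's quasi-likelihood test). The GC correlations were 0.436 and 0.406 in the Vehicle libraries and 0.423 and 0.348 in PA+NTP, and the 5 calls were kept with the trend removed, at 0.78, 0.78, 0.59, -0.75 and -0.86. In the same comparison the macrophage markers Marco (2.66) and Adgre1 (1.16) were called higher, the latter at only 0.34 to 1.12 FPKM over the libraries. Of the other macrophage markers tested, Cd68 (0.40) and Csf1r (0.85) were higher and Clec4f (-1.62) and C1qa (-0.06) lower, none of them called. The hepatocyte marker Apoa1 (-0.99) and the endothelial marker Kdr (-0.68) were called lower. The median of the 6 macrophage markers tested was 0.62, that of the 8 hepatocyte markers -0.54, and their part in the changes of Slc2a1, Pkm and the others was not tested. The number of calls fell to 3 without Vehicle replicate 1 and rose to 8 without PA+NTP replicate 1.

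The fatty acids at their own doses also differed directly, with 5 of 42 genes called for PA against LA (11.9%, background 3.23%). Pklr (0.71 ± 0.06) and Pkm (0.60 ± 0.08) were higher with PA, and Slc2a2 (-0.78 ± 0.15), Gys2 (-0.75 ± 0.18) and Gckr (-1.11 ± 0.34, adjusted p = 0.0485) were lower. With the trend removed Pklr, Slc2a2 and Gys2 were still called, and Pkm, at 0.57, and Gckr, with an adjusted p of 0.0534, were not. The groups were given 200 µM and 12 µM, so the fatty acid and its dose cannot be told apart. Whether the effect of NTP differed between PA and LA was tested by an interaction term, which edgeR's quasi-likelihood test called for none of the 42 genes (background 0%). At an unadjusted p under 0.05 it held 2 of the 42 and 1029 of all 14097 genes, and the smallest adjusted p of the 42 was 0.525. DESeq2 and limma also called none.

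All 8 hepatocyte markers were listed in every library. Their summed level was 3910 to 4140 FPKM in Vehicle, 2570 to 2870 in PA, 3180 to 3610 in PA+NTP, 3840 to 3960 in LA and 4660 to 4990 in LA+NTP. Alb was the largest term of each sum, while Tat, at 3.64 to 8.51 FPKM, and Cps1, at 1.52 to 4.61, were low. With PA, Apoa1 (-1.32), Serpina1c (-0.99), Ttr (-0.94) and Hnf4a (-0.73) were called lower, alongside Gckr and Fbp1. The other hepatocyte markers, Alb (-0.30), Tat (-0.22), Cps1 (-0.32) and Cyp2e1 (0.18), were not called. With the GC trend removed, Apoa1, Serpina1c and Ttr were still called lower, and Hnf4a, at -0.53, was not. Kupffer cell and macrophage markers summed to 206 FPKM in both Vehicle libraries, 201 to 237 in PA, 266 to 295 in PA+NTP, 124 to 129 in LA and 181 to 194 in LA+NTP, and with PA 1 of the 6 tested was called, Marco at 2.46. The others did not pass, with Clec4f at -1.90 and C1qa at -1.33, and the median of the 6 was 0.10. Nearly all of the macrophage sum was Cd68, and Clec4f, Vsig4 and Timd4 stayed at or under 0.3. Cholangiocyte markers summed to 407 to 704 FPKM, most of it Spp1, with Cftr under 0.1 in every library, endothelial markers to 29.1 to 42.6 and stellate cell markers to 25.3 to 33.4. With PA, 5 of the 8 stellate cell markers were called lower, Lrat (-1.10), Col1a1 (-0.93), Pdgfrb (-0.74), Acta2 (-0.65) and Reln (-0.62). Among all 14097 genes tested, 1257 were called lower with PA. With the GC trend removed, 2 of the 8 were called lower, Lrat and Acta2, while Col1a1, Pdgfrb and Reln were not called. Lrat, Pdgfrb and Reln stayed under 1 FPKM in every library. Lymphocyte markers stayed under 1 FPKM in sum, with Cd3e and Nkg7 under 0.1, and the 5 neutrophil markers were listed in no library. The part of these other cells in the levels of Slc2a1, Pkm, Aldoa and the other widely expressed genes was not tested.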

How the data were processed

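RNA of primary hepatocytes was sequenced in 10 libraries, 2 in each of 5 groups, grouped by the titles in the labels. The authors aligned reads with HISAT and Bowtie2 and quantified genes with RSEM (versions not given in the sources used here; build mm10 per the labels), and deposited for each library expected counts and FPKM. Genes absent from a library's list were set to 0. After rounding, counts entered edgeR 4.0.16 under R 4.3.3 (filterByExpr, TMM, quasi-likelihood test, all 10 libraries in 1 fit), leaving 14097 genes tested and 3958 dropped. The authors' FPKM was used for levels and shares.

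Genes were called where the Benjamini-Hochberg adjusted p fell below 0.05 with a change of 1.5-fold or more. The alternatives were DESeq2 1.42.0, limma 3.58.1 on log2(FPKM + 1) or log2(FPKM + 0.1), a NOISeq rule, no TMM, other filters, only the compared groups, a replicate block, the loss of each library, and removal of the loess trend (span 0.4) of log2 level on transcript GC content, which was known for 95.1% of the genes tested. Totals ranged 4.57-fold, from 13142588 to 60046937 expected counts, and set the precision of low genes. The biological coefficient of variation was 0.0682. The scripts were tested on simulated data. Replicates differed by more than counting noise, with a chi-square per gene of 3.69 to 15.85.

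The members and lists were chosen with earlier results of these data known. The genes named are those called in the 4 main comparisons, the control points, the 2 highest of each pathway group, the smallest adjusted p of each group, and 12 other pathway genes, of which 1 is not reported here. Between groups, the deviations of libraries with the same replicate number had correlations of -0.069 to 0.127, so libraries were not treated as pairs. These values cannot exclude that libraries shared a mouse or culture. Replicate numbers were those of the sample titles, and for some libraries the deposited names carried other numbers. Sequences are RefSeq windows on GRCm38.p6. The share of 31-base words that a transcript has in common with other genes, and the exon overlaps, were taken from the GENCODE annotation.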

Additional observations from a re-analysis of the deposited data

How the results depend on the processing

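None of the 14 calls among these genes reversed under any alternative. The fit with the replicate block kept all 14, DESeq2 13, the compared groups alone 13, limma 12 or 13, removal of the GC trend 2 and the NOISeq rule 0. Without the fold threshold the counts were 21 for PA, 20 for LA, 21 for PA+NTP against PA, 21 for LA+NTP against LA, 14 for PA+NTP against Vehicle and 10 for PA against LA. With the GC trend removed, with or without the replicate block, LA and both NTP comparisons gave 1 call each, and PA against LA gave 3 without the block. The NOISeq rule gave 0 in each, with no share of all genes beside it. Limma on log2(FPKM + 1) gave 2 for PA and 3 for PA against LA. Leaving out 1 library gave 1 to 3 calls for LA, 3 to 6 for PA+NTP against PA, 3 to 8 for PA+NTP against Vehicle and 2 to 6 for PA against LA, the fewest for the last without PA replicate 2 or LA replicate 1. The median log2 fold change of the 42 genes became 0.11 for PA and for LA with the trend removed (PA also with the block), and 0.00 for LA by the NOISeq values. For PA+NTP against PA it became -0.05 with the trend removed, with or without the block, and 0.12 without TMM, with limma on log2(FPKM + 0.1) and by the NOISeq values. For LA+NTP against LA it became -0.11 with the trend removed, -0.10 with the block as well, and 0.08 when genes of mean FPKM below 1 were dropped and by the NOISeq values. The medians of both NTP comparisons thus changed sign with the GC trend. Leaving out 1 library gave medians of 0.00 to 0.07, -0.02 to 0.08 and, for PA+NTP against Vehicle, -0.01 to 0.06. The share of Pygl in LA was 89.8% both by FPKM and by counts per length. Where not named, the cause of a change was not tested. With 2 libraries a group, and 42 counts for G6pc, 232 for Pck1 and 1405 for Gckr over all libraries, small changes in low genes were not detectable.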
